A study of Saccharomyces cerevisiae with 30 samples.

Results

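The windows described here are the 1206 windows, of 60303 across the genome, with the highest mean TrAEL-seq signal in asynchronously growing wild type budding yeast (*Saccharomyces cerevisiae*). Each window spans 2000 bp and a new one starts every 200 bp. They are the top 2% of all windows by the mean of the 6 asynchronous libraries. Those 6 libraries therefore chose the windows, and their values are given as a description only. Neighbouring windows overlap and share reads, so the 1206 windows were also merged into 114 regions, each represented by its lead window, the one with the highest asynchronous mean. Windows are given by their position on the R64 build.

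TrAEL-seq ligates an adaptor to free 3′ ends of DNA and maps them, and in growing cells most of these ends lie at replication forks, with a preference for the leading strand. Signal is high where forks spend more time or where 3′ ends persist. Hydroxyurea (HU) lowers deoxynucleotide pools by inhibiting ribonucleotide reductase, so forks from early origins slow a few kilobases from the origin, and they move on when the drug is washed out. Centromeres bind the kinetochore, a large protein complex that is known to slow passing forks, while the ends of the chromosomes carry telomeres, whose natural 3′ ends are a substrate for the assay.

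The study asked how forks are controlled by the checkpoint kinase Rad53 through the replication proteins it acts on. Strains were wild type, *pol1-1A* (a mutant of the catalytic subunit of DNA polymerase alpha primase), *mrc1-AQ cdc45-2A* (mutants of the checkpoint mediator Mrc1 and the helicase component Cdc45) and *mrc1-AQ cdc45-2A pol1-1A*, called the triple mutant here. All were arrested in G1 with alpha factor, released into 200 mM HU, and collected in HU (the HU block) or 20 min or 40 min after its removal, with 2 replicates each, giving 24 libraries in 12 groups. The other 6 libraries came from asynchronous wild type cells, not treated with HU, and equal shares of each of 2 preparations were spiked into the 3 pools of that replicate. No asynchronous mutant was analysed here.

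Strain libraries had between 2974768 and 10460920 mapped reads and a median of 102 to 1212 reads per window. The asynchronous libraries were shallower, with 317539 to 1333846 mapped reads and a median of 36 to 175 reads per window. Values are reads per 1000000 mapped reads (RPM), summed over both strands, after repeated sequence had been filtered out by the authors. RPM is a share of a library, so a change in one region and the opposite change in the rest of the genome cannot be told apart.

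The 2 asynchronous preparations did not rank the windows alike. Across all windows, Spearman correlations between aliquots of preparation 1 were 0.693 to 0.759 and between aliquots of preparation 2 were 0.738 to 0.823, but between preparations they were 0.245 to 0.486. Aliquots of preparation 2 correlated with the 6 wild type HU and release libraries at 0.512 to 0.670, and those of preparation 1 at 0.020 to 0.210. These are correlations across overlapping windows and carry no test. Only 182 windows were in the top 2% of both preparations, 15.1% of each list, and 129 of these lay in centromere regions, 12 at chromosome ends and 41 elsewhere. What set the preparations apart was not tested.

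The threshold lay in a continuous range of values. The lowest chosen window had 176.042 RPM and the highest window left out had 176.021 RPM. The median of the chosen windows was 185 RPM against 125 RPM for all windows, 326 of the 1206 were below 180 RPM, and 62 were above 250 RPM, so most of them stood a little above the rest and a small group stood far above.

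The strongest windows were found on all 16 chromosomes, but unevenly. The merged regions had a median length of 3400 bp, the longest covered 12400 bp and together they covered 469310 bp, 3.89% of the genome. A total of 16 lead windows lay in centromere regions, with 1 such region on each chromosome, 15 lay within 30 kb of a chromosome end, and 83 lay elsewhere. Chromosome XII held 349 windows, 28.9% of the chosen set against 8.84% of all windows, whereas chromosome II held 24.

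**Figure D1:**
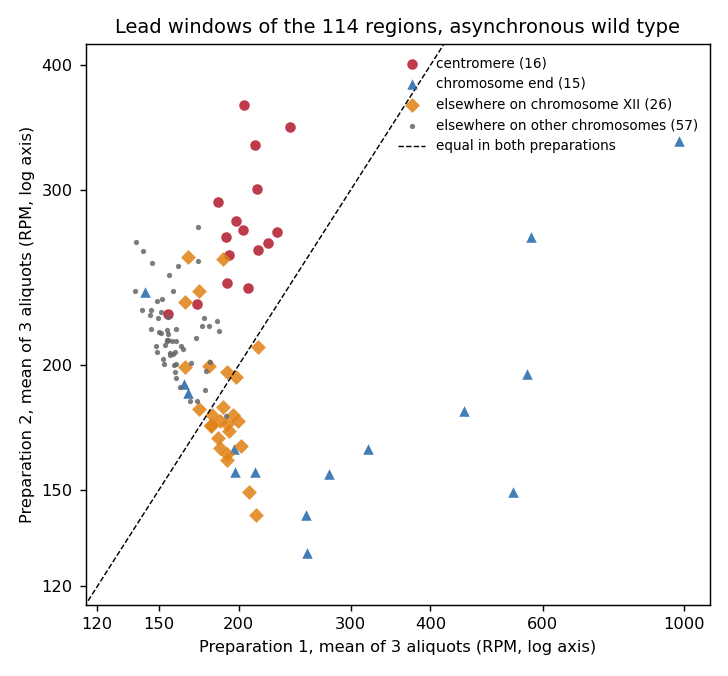
Asynchronous signal of the 114 lead windows in preparation 1 (horizontal, RPM, log axis) and preparation 2 (vertical, RPM, log axis), with each point a lead window and its mean over 3 aliquots. All 16 centromere leads lie above the line of equal signal and 12 of the 15 chromosome end leads lie below it.

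Centromeres were the feature most often covered. Windows that overlap a centromere interval, here the gene-free interval between the innermost genes of the left and right arm, made up 15.8% of the chosen windows and 0.413% of all windows, and 191 of the 249 such windows were chosen (76.7%). Merged regions with at least 1 window that overlaps an interval are called centromere regions here. They held 308 of the chosen windows, so not every window of these regions overlaps a centromere interval. All 16 centromere leads were higher in preparation 2 than in preparation 1. The 3 highest were chrXII:149401-151400 at *DNM1*, which encodes a dynamin-related GTPase of mitochondrial fission, with 241 RPM in preparation 1 and 347 RPM in preparation 2, chrXI:439601-441600 at *VPS1*, a dynamin-related GTPase of vacuolar protein sorting, with 204 and 365 RPM, and chrXIII:267801-269800 at *CDC5*, the polo kinase, with 212 and 333 RPM. These genes are named because they are the neighbours of the centromeres.

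At finer scale the asynchronous signal around the centromeres was a narrow peak. Averaged over the 16 centromeres, it reached 28.2 RPM per 200 bp bin in preparation 1 and 38.3 RPM in preparation 2 within 0.4 kb of the interval. The ratio of the signal within 0.8 kb to that 5 to 10 kb away had a median of 1.64 to 1.69 in the aliquots of preparation 1 and 1.97 to 2.05 in those of preparation 2. It was above 1 at 15 of 16 centromeres in every aliquot.

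In cells held in HU the median centromere had no such peak. In the HU block the median of the same ratio was 0.859 and 0.838 in the 2 wild type replicates, where it was above 1 at 5 of 16 centromeres in each. It was 0.575 and 0.464 in the *mrc1-AQ cdc45-2A* replicates, where it was above 1 at 6 and 7 centromeres. At 20 min it was 1.74 and 1.82 in wild type, and 1.28 and 1.38 in *mrc1-AQ cdc45-2A*, and at 40 min 1.29 and 1.25 in wild type and 1.48 and 1.55 in *mrc1-AQ cdc45-2A*. In both strains the 2 replicates at either release time were thus above those of the HU block, with no overlap. An exact two-sided permutation test of 2 replicates against 2 cannot go below p = 0.333, so these ratios carry no test.

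**Figure D2:**
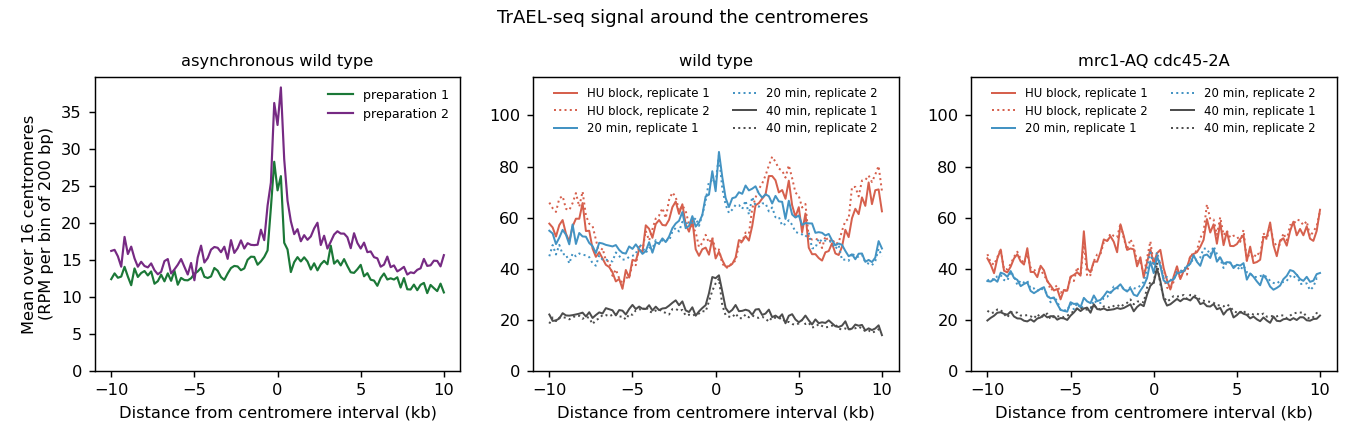
Mean signal over the 16 centromeres (RPM per 200 bp bin) against the distance from the centromere interval (kb), for the 2 asynchronous preparations (left), wild type (middle) and *mrc1-AQ cdc45-2A* (right), with 1 line per replicate. The asynchronous preparations peak at 28.2 and 38.3 RPM at the centromere, and the HU block lines have no such peak in wild type.

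Chromosome ends gave the highest single windows, while their share of the chosen windows was close to that of all windows. Windows within 30 kb of an end made up 7.63% of the chosen set and 7.96% of all windows. Among the lead windows the share was 13.2%. It was 21.5% among windows chosen from preparation 1 alone and 3.73% among those from preparation 2 alone. The 5 highest leads of all were nevertheless at ends. The left end of chromosome III, chrIII:1-2000, with no annotated gene, had 1013, 881 and 1054 RPM in the aliquots of preparation 1 and 385, 351 and 271 RPM in those of preparation 2. Every aliquot of preparation 1 was above every aliquot of preparation 2.

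The same order held at the other 4 of these ends. The right end of chromosome XI, chrXI:665001-666816, had means of 575 and 269 RPM in preparations 1 and 2, and chrXII:1063201-1065200 at *PAU4*, a seripauperin gene of a large family, had 566 and 196 RPM. The right end of chromosome XIV, chrXIV:782401-784333, had 538 and 149 RPM, and the left end of chromosome XV, chrXV:1-2000 at *AAD15*, an aryl-alcohol dehydrogenase gene, had 451 and 180.1 RPM. Windows at the right ends of chromosomes XI and XIV are shorter than 2000 bp because the chromosome stops there. Genes near the ends belong to repeated families, and reads shared between copies cannot be assigned with certainty.

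Most chromosome ends were not among the strongest windows. Of the 32 outermost full windows or last windows, 5 were chosen, the left ends of chromosomes III and XV and the right ends of VI, XI and XIV. The outermost windows of the right ends of chromosomes IV, V, VII and XII and the left ends of XIV and XVI were listed at 0 in all 30 libraries. Because the authors filtered sub-telomeric repeats, a window at 0 there says nothing of the ends of those chromosomes.

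The end windows differed between replicates in the strain libraries as well. Replicate 1 was above replicate 2 in 12 of 12 strain and time groups at the outermost windows of III left, XI right, XIV right and XV left. Over the 15 end leads, replicate 1 was higher in a median of 11 of the 12 groups (range 5 to 12), compared with 5.5 (4 to 11) for the centromere leads and 6 (2 to 12) for the leads elsewhere. At chrIII:1-2000 wild type had 323 and 169.5 RPM in the HU block, 190.4 and 102 RPM at 20 min, and 182 and 80.2 RPM at 40 min. Both replicates were lower at 40 min than in the HU block, although replicate 1 at 40 min was above replicate 2 in the HU block. The differences between the HU block and 40 min in wild type at this window, chrXI:665001-666816 and *PAU4* did not pass the test, which does not pair replicates (limma adjusted p = 0.269, 0.182 and 0.655).

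Chromosome XII held 30 of the regions, 26 of them away from its centromere and ends. Its median window had 163.585 RPM in preparation 1 against 134.548 RPM on the other chromosomes, a ratio of 1.22, and 123.473 against 110.904 RPM in preparation 2, a ratio of 1.11. In the strain libraries the same ratio ranged from 0.786 to 1.22. At 18 of the 26 leads preparation 1 was higher, whereas at 56 of the 57 leads elsewhere on other chromosomes preparation 2 was higher.

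The flank of the ribosomal DNA array, which lies on chromosome XII and holds a known barrier to forks inside each repeat, held few of the chosen windows. The array itself was filtered. Only 3 windows within 20 kb of it were chosen, 0.249% of the set against 0.318% of all windows. The share was 2.99% among windows chosen from preparation 1 alone, 0.995% with a mean weighted by depth, and no window of the top 2% of preparation 2 alone lay there. The 3 windows formed 1 region led by chrXII:435401-437400 at *PEP3*, a vacuolar sorting gene. This window had 208 RPM in preparation 1 and 149 RPM in preparation 2. In wild type it had 87.1 and 57.9 RPM in the HU block, 107 and 57.2 RPM at 20 min, and 321 and 326 RPM at 40 min. It was high at 40 min only, and in *mrc1-AQ cdc45-2A* it remained low at 84 and 62.2 RPM (log2 difference from wild type −2.15, SE 0.661, limma adjusted p = 0.0201).

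Classes of heavily transcribed gene differed in their shares. Windows that overlap ribosomal protein genes made up 1.24% of the chosen set and 3.02% of all windows, glycolytic genes 0.166% and 0.602%, and snoRNA genes none of the chosen windows although 702 windows hold one. Transfer RNA genes, which are short RNA polymerase III genes reported to impede forks, were at 107 windows, 8.87% of the set against 4.58% of all windows. Their share was 11.4% among windows chosen from preparation 2 alone and 4.48%, close to that of all windows, among those chosen from preparation 1 alone. Translation elongation factor genes were at 6 windows, 0.498% of the set against 0.338% of all windows, and a histone gene was at 1 window, 0.0829% against 0.181%. Protein-coding genes were at 97.5% of the chosen windows and 98.1% of all windows. These shares are counts of overlapping windows and carry no test.

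The chosen windows lay closer to origins than the genome as a whole. Origins were placed midway between pairs of HU block peaks 4 to 9 kb apart in wild type, which gave 145. The median distance from a chosen window to the nearest of them was 7200 bp (interquartile range 5700 to 9000 bp), against 26300 bp for all windows. A total of 61.8% of the chosen windows lay 5 to 10 kb from an origin, compared with 11.2% of all windows. The origins were derived from the HU block libraries of the same study and not from the asynchronous cells. The distance was not split by preparation. Windows chosen from preparation 1 alone had a wild type HU block level 1.46-fold that of all windows, against 8.33-fold for those from preparation 2 alone.

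In the strain libraries the chosen windows were followed through the release. In wild type their median level was 330 ± 17.8 RPM (mean ± SD over 2 replicates) in the HU block, 851 ± 31.5 RPM at 20 min and 187 ± 21.7 RPM at 40 min. Relative to the median of all windows this was 7.44-fold, 17.2-fold and 1.61-fold. This course depended on the preparation that chose the windows. Windows from preparation 1 alone had 1.46-fold, 1.55-fold and 1.57-fold, with no peak at 20 min. Those from preparation 2 alone had 8.33-fold, 18.1-fold and 1.51-fold. A total of 46.4% of the chosen windows were also in the top 2% of a wild type 20 min library, against 7.96% in the HU block and 5.76% at 40 min. The share over all windows is 2% by definition.

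The strains with *mrc1-AQ cdc45-2A* differed from wild type in this course. In *pol1-1A* the medians were 321 ± 2.68, 714 ± 13.2 and 151 ± 5.4 RPM, at 40 min below the HU block as in wild type. In *mrc1-AQ cdc45-2A* they were 221 ± 31.3, 450.3 ± 26.7 and 321 ± 24.3 RPM, and in the triple mutant 240.2 ± 20.8, 478 ± 63.7 and 419.9 ± 31.8 RPM. Both strains with *mrc1-AQ cdc45-2A* were thus lower at 20 min and higher at 40 min than wild type and *pol1-1A*. The replicates of these pairs of strains did not overlap at either time. The medians of the mutants were not split by preparation.

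**Figure D3:**
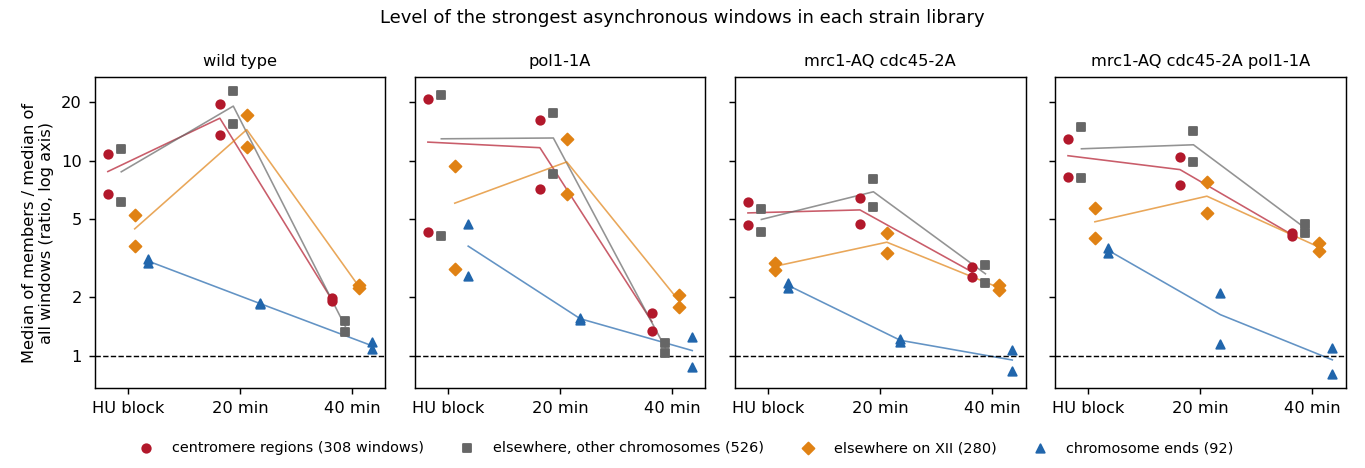
Ratio of the median of the chosen windows to the median of all windows in each strain library (log axis), for centromere regions, chromosome ends and the remaining windows on chromosome XII and on other chromosomes. Points are replicates, lines join group means, and the dashed line marks a ratio of 1. Wild type windows away from the ends are highest at 20 min and near 1.5 to 2.5 at 40 min. The wild type ratio of the end windows was lower at each later time. Their median level was 143 RPM in the HU block, 95.7 RPM at 20 min and 131 RPM at 40 min. The median of all windows rose from 57.5 and 36.6 RPM in the HU block to 121 and 111 RPM at 40 min.

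The time of the highest level differed between kinds of window. In wild type 68.0% of the chosen windows were highest at 20 min, 20.1% in the HU block and 11.9% at 40 min, while of all windows 66.8% were highest at 40 min. In centromere regions 72.1% were highest at 20 min, and away from the ends, the centromeres and chromosome XII the share was 78.9%. Windows elsewhere on chromosome XII were more often highest at 40 min (31.4%), and those at the ends most often in the HU block (46.7%). In the order HU block, 20 min and 40 min, the shares of all chosen windows in *mrc1-AQ cdc45-2A* were 15.9%, 44.8% and 39.3%. In the triple mutant they were 17.4%, 35.1% and 47.5%. The shares by time of the highest level were not split by preparation.

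A fit with limma across 59363 windows tested these changes, and all 1206 chosen windows passed its filter of at least 1 read in the 24 strain libraries. Between the HU block and 20 min, 765 of the chosen windows rose in wild type, where 16.8% of all windows rose, and 133 fell, where 11.2% of all windows fell. The median log2 change was 1.13 for the chosen windows and −0.03 for all windows. By kind of window, 222 of 308 in centromere regions rose, 26 of 92 at the ends and 517 of 806 elsewhere.

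Windows rose by 20 min in the other strains too. In *pol1-1A* 724 windows rose (background 19.5%) and 155 fell (background 10.2%), with a median of 1.01 against 0.69 for all windows. In *mrc1-AQ cdc45-2A* 672 rose (background 16.9%) and 91 fell (background 7.87%), with medians of 0.75 and 0.30, and in the triple mutant 639 rose (background 21.9%) and 91 fell (background 7.84%), with medians of 0.69 and 0.45. These 4 comparisons were added after the values had been seen.

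Between the HU block and 40 min more of the chosen windows fell than rose in wild type and *pol1-1A*, and more rose than fell in the strains with *mrc1-AQ cdc45-2A*. In wild type 266 of the 1206 windows rose and 680 fell, whereas 43.3% of all windows rose and 13% fell. Of the 308 in centromere regions 67 rose and 174 fell, and of the 806 elsewhere 176 rose and 496 fell. Of the 92 at the ends 23 rose and 10 fell, in each direction a smaller share than of all windows. In *pol1-1A* 218 rose (background 55.5%) and 740 fell (background 13.3%). In *mrc1-AQ cdc45-2A* 567 rose (background 40.5%) and 337 fell (background 14.8%), and in the triple mutant 632 rose (background 48.5%) and 313 fell (background 14.7%). Median log2 changes for chosen and all windows were −0.86 and 0.90 in wild type, −1.04 and 1.28 in *pol1-1A*, 0.55 and 0.91 in *mrc1-AQ cdc45-2A* and 0.78 and 1.15 in the triple mutant. In all 4 strains the median of the chosen windows was thus below that of all windows.

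Since the median of all windows itself shifted, the scaling mattered for the background. With quantile normalization that median moved from 0.90 to −0.01 in wild type, and of the windows called in the whole genome 14284 rose and 13472 fell in place of 25693 and 7716. The chosen windows then split into 209 that rose and 869 that fell, so they remained lower on balance, as they did in *pol1-1A* (185 and 924). In *mrc1-AQ cdc45-2A* 562 rose and 388 fell, with medians of 0.35 for the chosen and 0.11 for all windows, and in the triple mutant 618 rose and 327 fell, with medians of 0.59 and 0.09. On this scale the chosen windows of these strains were above all windows, not below.

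The direction in wild type and *pol1-1A* rested on which preparation had chosen the windows. With the top 2% of preparation 2 alone, 130 windows rose and 790 fell between the HU block and 40 min, but with the top 2% of preparation 1 alone 567 rose and 124 fell, with a median log2 change of 0.93, close to the 0.90 of all windows. In *pol1-1A* 86 rose and 869 fell with preparation 2. With preparation 1, 659 rose and 136 fell, with a median log2 change of 1.39, close to the 1.28 of all windows. Of all windows 55.5% rose and 13.3% fell in *pol1-1A*. Among the 182 windows in the top 2% of both preparations, 47 rose and 96 fell in wild type. In wild type at 20 min against the HU block, more windows rose than fell with either choice, and the size of the change differed. For preparation 2, 858 rose and 188 fell, with a median log2 change of 1.33. For preparation 1, 253 rose and 32 fell, with a median of 0.10. Of all windows 16.8% rose and 11.2% fell, with a median of −0.03.

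**Figure D4:**
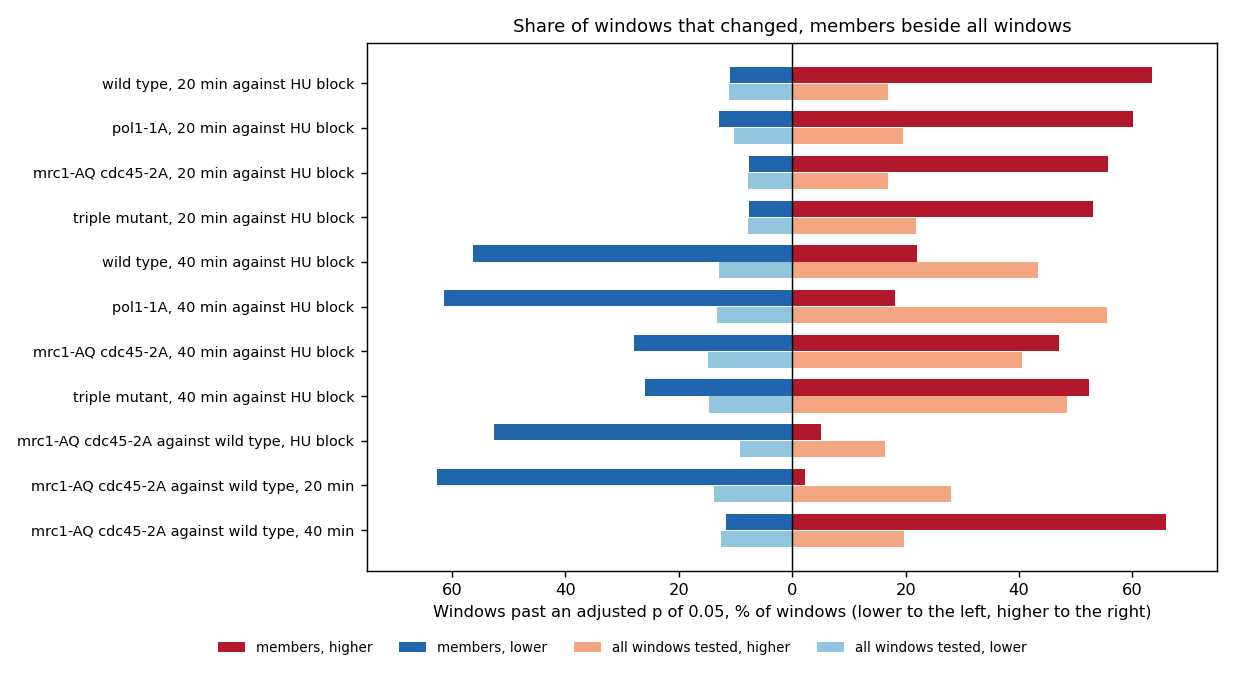
Share of windows past a limma adjusted p of 0.05 in each comparison (percent, higher to the right and lower to the left), for the 1206 chosen windows and for all windows tested. In wild type 765 of the chosen windows rose by 20 min (background 16.8% of all windows). At 40 min 680 were below the HU block (background 13%). In *mrc1-AQ cdc45-2A* 567 were above the HU block at 40 min (background 40.5%) and 337 below it (background 14.8%).

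Single lead windows show the course. At the centromere of chromosome XII, chrXII:149401-151400, wild type had 393 and 400.3 RPM in the HU block, 1187 and 1119 RPM at 20 min and 268 and 242 RPM at 40 min. In *mrc1-AQ cdc45-2A* the values were 354 and 258, 555 and 594, and 502 and 554 RPM. Wild type was highest at 20 min and lowest at 40 min with no overlap between its 3 groups, while in *mrc1-AQ cdc45-2A* the 20 and 40 min replicates lay next to each other, above those of the HU block. The log2 change from the HU block to 20 min in wild type was 1.54 (SE 0.144, limma adjusted p = 1.1e-07), and to 40 min it was −0.64 (adjusted p = 0.00121), against 0.80 in *mrc1-AQ cdc45-2A* (adjusted p = 0.000102).

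The centromere of chromosome XI followed it closely. At chrXI:439601-441600 (*VPS1*) wild type had 348 and 344 RPM, then 1118 and 1157 RPM, then 294 and 242 RPM. In *mrc1-AQ cdc45-2A* it had 312 and 228, 462 and 501, and 512 and 489 RPM. The wild type difference between 40 min and the HU block did not pass the test (log2 change −0.37, limma adjusted p = 0.054), and the rise in *mrc1-AQ cdc45-2A* did (0.90, adjusted p = 8.97e-05).

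Other centromeres took different courses. At chrII:238201-240200, beside the centromere of chromosome II and the trehalase gene *NTH2*, wild type fell from 1153 and 1163 RPM in the HU block to 231 and 173 RPM at 20 min and to 63 and 63.3 RPM at 40 min (log2 change −4.18, SE 0.223, limma adjusted p = 5.04e-12). The nearest origin was 1600 bp away. In *mrc1-AQ cdc45-2A* this window fell as well, from 1005 and 1023 RPM to 73.5 and 98.6 RPM. All strains were high in the HU block and low thereafter, without overlap.

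At the centromere of chromosome VI the order was reversed. There chrVI:148201-150200, which holds *DEG1*, *LOC1* and the nucleoporin gene *NIC96*, had 138 and 37.4 RPM in the HU block, 278 and 264 RPM at 20 min, and 678 and 639 RPM at 40 min in wild type (log2 change to 40 min 3.17, SE 0.579, adjusted p = 0.000182). The nearest origin was 18700 bp away. In *mrc1-AQ cdc45-2A* the values at 40 min were 204 and 122 RPM, below both wild type replicates. The window at the centromere of chromosome IV (*RMD1*), 13200 bp from the nearest origin, also rose in wild type, from 319 and 232 RPM to 581 and 468 RPM at 40 min (0.94, adjusted p = 0.00141).

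The remaining centromere leads among the 10 strongest regions were those at *CDC5* and *MNN1*. At chrXIII:267801-269800 (*CDC5*), 5600 bp from an origin, wild type had 483 and 602 RPM in the HU block, 989.9 and 974 RPM at 20 min and 171 and 158 RPM at 40 min. In *mrc1-AQ cdc45-2A* it had 444 and 462, 492 and 575, and 268 and 342 RPM, so it was lowest at 40 min in both strains. At chrV:151801-153800 (*MNN1*, a mannosyltransferase gene), 7400 bp from an origin, wild type had 286 and 288, 1114 and 1049.8, and 274 and 215 RPM, and *mrc1-AQ cdc45-2A* 189 and 144, 379 and 407, and 467 and 555 RPM. Here *mrc1-AQ cdc45-2A* was highest at 40 min, and both of its replicates were then above wild type (log2 difference 1.06, SE 0.165, limma adjusted p = 0.000233).

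Of the windows within 30 kb of an end, those away from the outermost kilobases included some with the course of the windows inside the chromosomes. At chrIX:419601-421600, which holds *LYS1*, a lysine biosynthesis gene, and *NRE1*, wild type had 170.4 and 165 RPM in the HU block, 900.3 and 1052 RPM at 20 min and 249 and 174 RPM at 40 min. In *mrc1-AQ cdc45-2A* the values were 109 and 59, 262 and 269, and 405 and 459 RPM (change from the HU block to 40 min 2.41, SE 0.26, limma adjusted p = 1.71e-07). A window near the left end of chromosome III, chrIII:17001-19000, holds *VAC17* and *MRC1* itself, the gene of which the mutants carry the *mrc1-AQ* allele. It rose in wild type from 81.7 and 38.3 RPM in the HU block to 403 and 475 RPM at 40 min (2.94, SE 0.759, adjusted p = 0.00307), and had 116 and 82.2 RPM at 40 min in *mrc1-AQ cdc45-2A* and 40.8 and 35.3 RPM in the triple mutant. The part of the allele in these values was not tested.

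Away from the centromeres, single leads both fell and rose in wild type. A window at *TSR4* and the tRNA gene *SUF17*, chrXV:280201-282200, fell from 1464 and 1723 RPM to 85.9 and 76.4 RPM at 40 min (log2 change −4.28, adjusted p = 1.23e-12), and *PAP1*, which encodes poly(A) polymerase, fell by 3.93. A window at *MSN5*, a nuclear transport receptor, chrIV:1142801-1144800, rose from 123 and 41.9 RPM to 688 and 627 RPM (3.17, SE 0.668, adjusted p = 0.000691). In *mrc1-AQ cdc45-2A* the largest rise was at *TUB3*, an alpha-tubulin gene, and *PHO84*, a phosphate transporter gene, where 94.5 and 57.8 RPM became 439 and 493 RPM (2.64, SE 0.217, adjusted p = 3.88e-09). In wild type the same window had 206 and 217 RPM in the HU block and 202 and 199.6 RPM at 40 min.

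**Figure D5:**
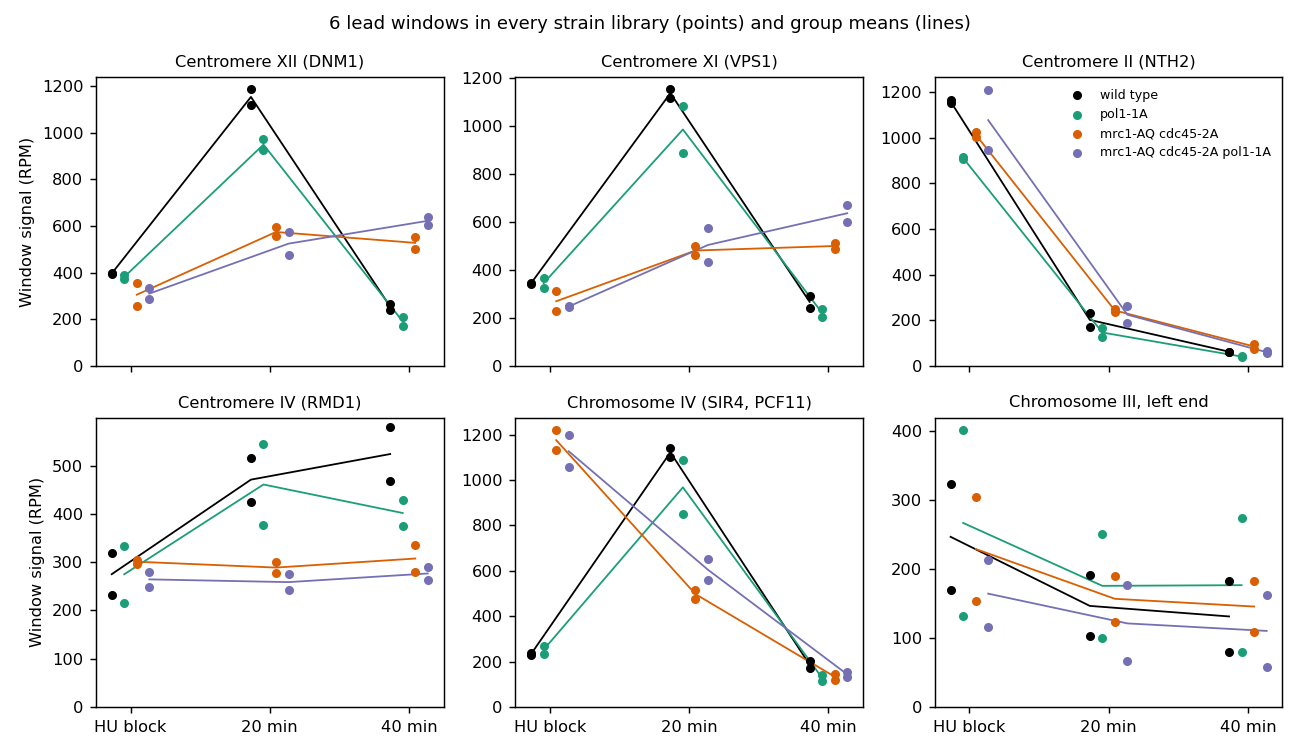
Signal (RPM) of 6 lead windows in the HU block and 20 and 40 min after release, with points for the 2 replicates of each strain and lines through the group means. At the centromeres of chromosomes XII and XI wild type and *pol1-1A* peak at 20 min. In *mrc1-AQ cdc45-2A* the values at 20 and 40 min lie close together there, above those of the HU block.

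Compared directly with wild type, *mrc1-AQ cdc45-2A* had less signal in most of these windows early and more late. In the HU block 635 windows were lower, against a background of 9.14% of all windows, and 62 were higher (background 16.3%). At 20 min 756 were lower (background 13.8%) and 27 higher (background 28%). At 40 min 795 were higher (background 19.7%) and 140 lower (background 12.5%). Median log2 differences of the chosen windows were −0.65, −0.88 and 0.86, and those of all windows −0.24, 0.12 and 0.24. Chosen from preparation 1 alone, the windows gave 117 lower and 50 higher in the HU block and 267 lower and 73 higher at 20 min. At 40 min they gave 191 higher and 263 lower, so the direction at 40 min again depended on the preparation. The 182 windows in the top 2% of both preparations gave 79 lower and 5 higher in the HU block and 128 lower and 0 higher at 20 min. At 40 min they gave 113 higher and 27 lower.

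The direction at 40 min was shared by centromere regions and other windows. Of 308 windows in centromere regions 209 were higher and 31 lower in *mrc1-AQ cdc45-2A*, and of 806 elsewhere 565 were higher and 107 lower. Of 92 at the ends 21 were higher and 2 lower. Of all windows 19.7% were higher and 12.5% lower, so the share of higher windows at the ends was near that of all windows. Without the second *mrc1-AQ cdc45-2A* replicate at 40 min, the higher windows numbered 579 and the lower 31 in all.

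The largest difference among the leads at 20 min was at the centromere of chromosome XIV. At chrXIV:628201-630200, beside *DOM34*, a ribosome rescue factor gene, and *CIT1*, the mitochondrial citrate synthase gene, wild type had 288 and 258 RPM in the HU block, 761 and 676 RPM at 20 min and 331 and 370.2 RPM at 40 min. In *mrc1-AQ cdc45-2A* the values were 75.5 and 54.9, 75.6 and 53.6, and 149 and 93.8 RPM, and in the triple mutant none was above 67.2 RPM. Every replicate of both mutants was below every wild type replicate. The log2 differences of *mrc1-AQ cdc45-2A* from wild type were −2.07, −3.47 and −1.56 (SE 0.317, limma adjusted p = 3.58e-05, 5.63e-08 and 0.00201). This window was among the strongest in asynchronous wild type cells (203 and 273 RPM).

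A few windows were higher in *mrc1-AQ cdc45-2A* already in the HU block. At chrIV:920001-922000, which holds *SIR4*, a silencing gene, and *PCF11*, an mRNA 3′ end processing gene, wild type had 237 and 230.2 RPM in HU and 1101 and 1142 RPM at 20 min. In *mrc1-AQ cdc45-2A* there were 1133 and 1218 RPM in HU and 517 and 477 RPM at 20 min. The HU block value of the mutant was therefore close to the 20 min value of wild type (log2 difference in HU 2.33, SE 0.159, adjusted p = 1.47e-08). A similar window at *MLO50* on chromosome XII had 118 and 50.9 RPM in wild type and 552 and 485 RPM in the mutant (2.72, adjusted p = 5.39e-06).

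The release itself was compared between the strains as the change from the HU block to 40 min in *mrc1-AQ cdc45-2A* minus that in wild type. The difference passed the test in 24.5% of all windows. It was positive in 806 of the chosen windows, against a background of 12%, and negative in 66 (background 12.5%). Its median was 1.43 for the chosen windows and 0.19 for all windows. For windows chosen from preparation 1 alone the difference was positive in 180 and negative in 92, with a median of 0.26. By kind of lead it was positive at 8 of 16 in centromere regions, 2 of 15 at the ends and 55 of 83 elsewhere, and negative at 1, 0 and 7. Among the leads it was largest at *TUB3* and *PHO84* (2.71, SE 0.308, limma adjusted p = 1.7e-06) and most negative at *MLO50* (−4.28, SE 0.501, adjusted p = 2.43e-06).

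Neither addition of *pol1-1A* changed the chosen windows past the threshold. For *pol1-1A* against wild type, limma called 0 of 1206 in the HU block and 0 at 40 min (background 0% at both times), and edgeR called 0 at both. At an unadjusted limma p below 0.05 were 0 chosen windows in the HU block, where 402 of all 59363 windows were. At 40 min 223 chosen windows were, and 724 of all windows. The medians of the chosen windows differed by −0.09 and −0.28 on the log2 scale, and without the first *pol1-1A* HU block replicate 125 windows were called lower. For the triple mutant against *mrc1-AQ cdc45-2A*, limma called 0 in the HU block (median 0.05) and 0 at 40 min (median 0.34), with a background of 0% at both times, and edgeR 0 at both. Unadjusted, 173 chosen windows passed in the HU block, where 6976 of all windows did, and 474 at 40 min, where 3802 of all windows did. The libraries of a time and replicate number shared a pool, and with the pool as a block the triple mutant differed in 30 windows in the HU block, 28 of them higher, and in 3 at 40 min, all lower. By limma the change from the HU block to 40 min differed in 0 of all windows tested for *pol1-1A* minus wild type. For the triple mutant minus *mrc1-AQ cdc45-2A* it also differed in 0. A p above the threshold with 2 replicates does not show that these strains were alike.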

How the data were processed

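TrAEL-seq was analysed in 30 libraries. Per the submitters' processing notes, reads were processed with Trim Galore 0.6.5 and Bowtie2 2.4.1 on the R64 build. Per the study's methods, de-duplicated reads were cut to the base at their 5′ end, regions not of single copy were removed, and both strands were counted in running windows and scaled to 1000000 mapped reads. The deposited values are this normalized signal. They correspond to whole reads (100% of values within 0.01 read, largest departure 0.000634), and edgeR's quasi-likelihood test on these whole reads served as an alternative. Since the values are normalized, the main test was limma-trend on log2(RPM + 1) in one fit of the 24 strain libraries, with Benjamini-Hochberg adjustment over the 59363 windows with a read (940 had none) and a threshold of 0.05. The script was tested on simulated reads.

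The windows and gene lists were chosen with earlier results of these data known. Named windows are the leads of the 10 strongest regions, the 3 strongest at centromeres and ends, the rDNA flank, and the 3 largest called changes each way in each planned comparison. The centromere leads on chromosomes II, VI and XIV were within that rule. The 20 min against HU comparisons, the difference of the releases and the counts with windows from 1 preparation were added after the values were seen.

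Labels name shared pools, which pairs strains within a time and replicate number. Deviations from group means correlated between libraries of a pool with medians of 0.559, 0.263 and 0.518 for the HU block, 20 min and 40 min (lowest 0.045). The study describes 2 biological repeats without stating whether these are separate cultures, so p-values measure the spread between these samples only. Alternatives were the pseudocount, the filter, the scaling, quantile normalization, the block, only the libraries compared, windows that do not overlap, each replicate left out, edgeR, and other choices of windows. No genome sequence was used here, so no sequence or GC content is given. Centromere intervals were taken from the order of genes in RefSeq. R 4.3.3, limma 3.58.1, edgeR 4.0.16, Python 3.11.15, numpy 2.4.6, pandas 2.3.3, scipy 1.17.1 and matplotlib 3.10.9 were used.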

Additional observations from a re-analysis of the deposited data

Results flagged for a closer look

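The change from the HU block to 40 min differed between *mrc1-AQ cdc45-2A* and wild type in 872 of the 1206 windows by a limma test of the difference itself, 806 of them more positive in the mutant. By the same test 12% of all windows were more positive and 12.5% more negative, with a median difference of 0.19. Chosen from preparation 1 alone, 272 of 1206 windows differed, of which 180 were more positive (median 0.26). From preparation 2 alone 999 differed, of which 950 were more positive (median 1.64). Among the 10 strongest regions, 5 centromere leads differed in this way. On the log2 scale the difference was 1.86 at *MNN1* on chromosome V, 1.44 at *DNM1* on chromosome XII, 1.28 at *VPS1* on chromosome XI and 1.13 at *CDC5* on chromosome XIII. At *RMD1* on chromosome IV it was −0.91, the opposite way. The 5 chromosome end leads among the 10 did not pass the test.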

How the results depend on the processing

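Main counts of windows called were within 1.5 times of those under each alternative that kept the chosen windows, with these exceptions. With quantile normalization the triple mutant differed from *mrc1-AQ cdc45-2A* at 40 min in 40 windows, all higher. With only the 4 libraries compared, *pol1-1A* changed between the HU block and 40 min in 542 windows (527 lower). The replicate block by pool, which follows the labels' pairing, gave 30 and 3 windows for the triple mutant against *mrc1-AQ cdc45-2A* in the HU block and at 40 min, and changed no other count by that much. Without the second *mrc1-AQ cdc45-2A* replicate at 40 min, 610 windows differed between it and wild type at that time, and without the first *pol1-1A* HU block replicate 125 differed between *pol1-1A* and wild type in the HU block. The cause of these changes was not tested. Between times the replicate number marks no shared pool, and as a block it gave 982 windows in wild type at 40 min against the HU block, in place of 946. With this replicate block the wild type differences at the end windows chrIII:1-2000 and chrXI:665001-666816 passed the test (log2 change −0.95 at both, limma adjusted p = 0.00535 and 0.0139) and that at *PAU4* did not (0.491), an alternative chosen after seeing the data. Leaving out each replicate in turn gave, for 40 min against the HU block, 756 to 937 windows in wild type, 826 to 980 in *pol1-1A*, 789 to 864 in *mrc1-AQ cdc45-2A* and 856 to 895 in the triple mutant. For 20 min the ranges were 832 to 866, 800 to 989, 595 to 739 and 581 to 684. For *mrc1-AQ cdc45-2A* against wild type they were 476 to 722 in the HU block, 676 to 737 at 20 min and 610 to 858 at 40 min, and for the difference of the releases 804 to 865. For *pol1-1A* against wild type they were 0 to 125 and 0 to 0, and for the triple mutant against *mrc1-AQ cdc45-2A* 0 to 0 at both times. The lone remaining sample was then assumed to vary like the other groups. With quantile normalization, the shares of all windows called higher and lower between the HU block and 40 min were 24.1% and 22.7% in wild type, 22.4% and 18.3% in *pol1-1A*, 29.7% and 22.5% in *mrc1-AQ cdc45-2A* and 29.6% and 22.3% in the triple mutant. For *mrc1-AQ cdc45-2A* against wild type they were 17.0% and 21.4% in the HU block and 27.2% and 26.7% at 20 min, and for 20 min against the HU block 13.5% and 12.5% in *pol1-1A* and 9.06% and 5.54% in the triple mutant.

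Of 1522 recomputed values for 116 changes of single windows, 1464 kept direction and threshold, 57 kept direction only, and 1 turned. That was the *mrc1-AQ cdc45-2A* change from the HU block to 40 min at chrXIV:628201-630200, which was 0.87 (limma adjusted p = 0.0256) and −0.44 with quantile normalization. The top 1% of windows formed 66 regions and the top 5% formed 227. Chromosome XII held 70.3% of the windows chosen from preparation 1 alone and 11.9% of those from preparation 2 alone. The ends held 21.5% and 3.73%. The wild type 20 min level relative to all windows was 1.55-fold and 18.1-fold.

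The asynchronous libraries limit the ranking, with as few as 36 reads in the median window and 2 preparations that share few windows.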
